A study of Mus musculus with 12 samples.

Results

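Hematopoietic cluster cells negative for a Ly6a-GFP reporter (HC GFP-) were compared with endothelial cells positive for it (EC GFP+), both sorted from the large arteries of mouse embryos at embryonic day 11.5. The comparison used 6 of the 12 RNA-seq samples of the series, 3 against 3, and 12580 of the 33531 genes listed, namely those whose FPKM (fragments per kilobase of transcript, scaled to the mapped fragments of each library) was at least 1 in 3 or more of these 6 libraries. Cell type and reporter state differ together in this comparison. The embryos had Tg(Ly6a-GFP) fathers and C57BL/6 x 129S1/SVImJ F1 mothers, and the strain is labelled B6129S; every population, the GFP- cells included, came from embryos that carried the transgene. Dorsal aorta, umbilical and vitelline arteries of 122 embryos were dissected and treated with collagenase. Cells were sorted for CD31, CD144 (VE-cadherin) and ESAM, cluster cells also for the presence and endothelial cells for the absence of Kit, and this gave 413000 HC GFP- and 377000 EC GFP+ cells. Each population was divided into 3 pools of cells from many embryos, and the labels do not say whether pools with the same number share embryos. The other populations, GFP+ cluster cells (HC GFP+) and GFP- endothelium (EC GFP-), also had 3 libraries each.

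Blood stem and progenitor cells of the mid-gestation embryo arise from endothelial cells in the wall of the large arteries. These cells take up a blood programme under Runx1 and its partners, round up and form clusters on the inner surface of the vessel. Arterial endothelium is set apart from venous and lymphatic endothelium by Notch and VEGF signalling and by connexins, and it lays down an elastic matrix. Ly6a encodes the surface antigen Sca-1, and its GFP reporter marks the cluster cells with stem cell activity as well as a part of the endothelium.

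Library sums of FPKM ranged from 555675 to 612749 over the 6 libraries, with 12147 to 12762 genes at an FPKM of 1 or higher; FPKM values keep no read number, so sequencing depth is unknown. Across genes, which are not independent replicates, log2(FPKM + 1) of libraries from the same population correlated at Pearson r between 0.966 and 0.982, and of libraries from different populations at r between 0.924 and 0.951. Replicate 2 of HC GFP- stood apart from the other 2 pools of its population. Its correlations with EC GFP+ libraries were 0.946 to 0.951, against 0.924 to 0.939 for the other pools. Its summed FPKM over 23 macrophage genes was 424, against 1390.1 and 1117 in replicates 1 and 3, and over 31 pan-endothelial genes 5853 against 4300.0 and 4507. In HC GFP+, replicate 2 likewise had the lowest macrophage sum (454, against 1278 and 2577) and the highest pan-endothelial sum (5755, against 5156 and 5356). The same held for replicate 2 of EC GFP+ (25.8 and 8585), but not for replicate 2 of EC GFP-. Results that rest on replicate 2 of HC GFP- are given with and without it. Every library is a bulk sample, in which fewer cells of a type and less RNA per cell cannot be told apart.

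The transcripts of the sorted proteins were checked next; since the gates used these proteins or the reporter, their differences are a check and not a finding. Pecam1, which encodes CD31, was measured at an FPKM of 200.0, 281 and 229 in the 3 HC GFP- libraries and 439, 421 and 414 in the 3 EC GFP+ libraries. Cdh5, which encodes VE-cadherin, stood at 383, 527 and 395 against 705, 740.2 and 693, and Esam at 123, 188 and 127 against 254, 275 and 257. All 3 endothelial transcripts were thus abundant in both populations and lower in every HC GFP- library than in any EC GFP+ library. Kit was 19.2, 25.8 and 19.1 in HC GFP- and 13.3, 14.5 and 14.2 in EC GFP+, a difference of 0.56 ± 0.15 (SE) on the log2(FPKM + 1) scale (limma, adjusted p = 0.025), so the Kit transcript was well above 0 in the population sorted as lacking Kit protein. That call was lost when replicate 2 of HC GFP- or any 1 library of EC GFP+ was left out (0.43 to 0.59, adjusted p between 0.0561 and 0.0819). Ly6a was 0.778, 1.47 and 0.0538 in HC GFP- and 8.82, 8.42 and 9.05 in EC GFP+, -2.55 ± 0.37 on the log2(FPKM + 1) scale with a pseudocount of 1 and -3.89 with a pseudocount of 0.1. Ptprc, the gene of the pan-leukocyte protein CD45, was 6.93, 2.59 and 7.07 against 0.292, 0.506 and 0.624, present in each HC GFP- pool and lowest in replicate 2. Cd27, the gene in the title of the study, was low throughout the 6 libraries, at 0.865, 0.475 and 0.974 in HC GFP- and 0.707, 1.59 and 0.753 in EC GFP+; it did not reach the filter and the groups overlapped. In HC GFP+ it stood at 4.46, 7.14 and 11. Cd70, which encodes the CD27 ligand, was listed at 0 in all 6 libraries.

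Of the 12580 genes, 1055 were higher in HC GFP- (8.39%) and 1004 were lower (7.98%) at a limma adjusted p under 0.05, 16.4% in all, and the median difference over all genes tested was 0.06 on the log2(FPKM + 1) scale. Scaling the libraries to an equal FPKM sum gave 730 higher and 1144 lower, and 776 and 1105 when erythroid and mitochondrial genes were left out of the sum. With replicate 1 or 3 of HC GFP- left out 547 and 529 genes were higher, and with replicate 1, 2 or 3 of EC GFP+ left out 666, 671 and 645. The 3 HC GFP- libraries lay wholly above the 3 EC GFP+ libraries for 3004 genes (23.9%) and wholly below for 2068 (16.4%). Since cell type and reporter change together, each difference was also written as a cell type part (the mean of both HC populations minus the mean of both EC populations) minus a reporter part (the mean of both GFP+ populations minus the mean of both GFP- populations). The parts add up exactly and come from the same libraries, with the 6 of HC GFP+ and EC GFP- added, so they describe the difference rather than test it again. Over all genes tested, 10.8% were higher and 8.62% lower by cell type, and 9.39% higher and 9.42% lower by reporter. At an equal FPKM sum these splits moved from 1353 higher and 1084 lower to 1793 and 789 by cell type, and from 1181 and 1185 to 2083 and 523 by reporter. The reporter effect itself differed between cluster cells and endothelium for 68 genes, 0.541% of those tested.

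The genes with the largest changes in each direction differed in which part they carried. The 12 largest rises in HC GFP- had a median difference of 4.30, with cell type parts between 3.92 and 5.04 and reporter parts between -0.22 and 0.61. The 12 largest falls had a median of -3.64, with cell type parts between -2.79 and -0.75 and reporter parts between 0.79 and 3.0. In these averages the rises therefore lay along the cell type axis, and the falls took a share from each axis. Among GFP- cells alone, the cell type difference (HC GFP- minus EC GFP-) was -0.004 for Pi16, -0.12 for Cytl1, -0.18 for Fbln5 and -0.52 for Eln. None of these passed (limma, adjusted p between 0.413 and 0.995). It was -2.33 for Gja4 and -2.60 for Gja5, and the remaining largest falls lay between. Globins, further down the list of rises, lay along the reporter axis, as the plot of both parts shows.

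**Figure D1:**
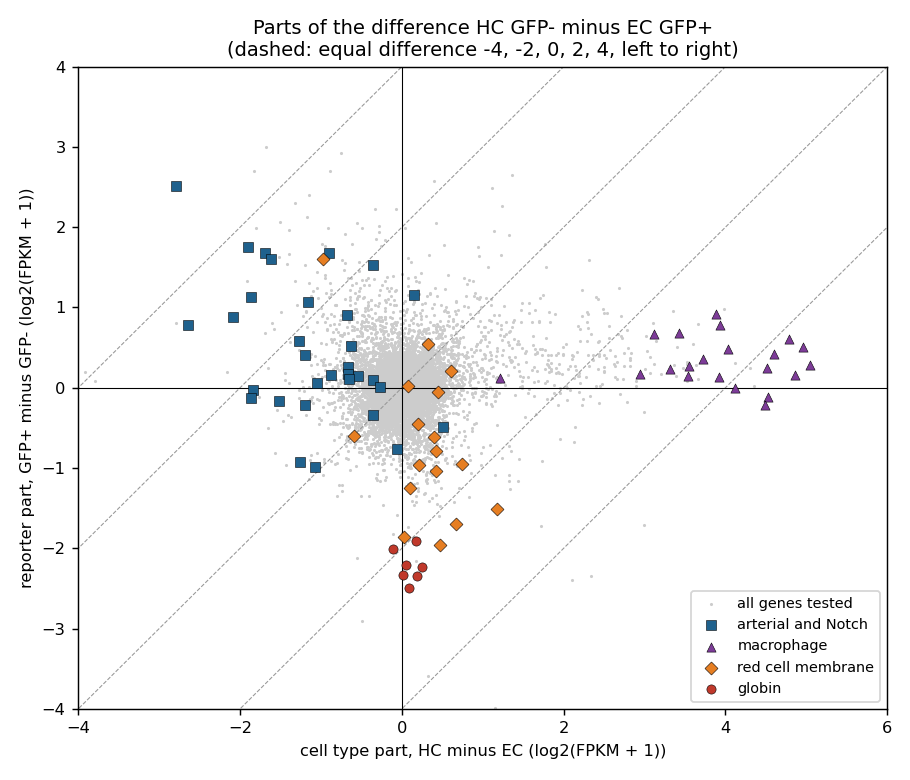
Cell type part (HC minus EC, x axis) against reporter part (GFP+ minus GFP-, y axis) of the difference between HC GFP- and EC GFP+, in log2(FPKM + 1); grey points are all genes tested, coloured points are tested members of 4 gene lists, and dashed lines join genes of equal difference. Macrophage genes lie to the right near a reporter part of 0, globins lie below 0 near a cell type part of 0, and most arterial and Notch genes lie to the left.

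Genes of arterial endothelium were widely lower in HC GFP-. The gene lists here and below were chosen with earlier results of these data known. Their shares therefore describe the members and do not test the lists. Of 32 arterial and Notch genes tested, 25 were lower, 0 were higher and 7 did not pass (limma, adjusted p under 0.05), against 7.98% lower among all genes, and the median was -1.25 against 0.06. Their summed FPKM was 684, 855 and 723 in HC GFP- and 1927, 1929 and 1992 in EC GFP+. Connexins led the list. Gja5, the arterial gap junction protein connexin 40, was measured at 4.75, 6.79 and 6.09 in HC GFP- and 261, 271 and 277 in EC GFP+, a difference of -5.31 ± 0.17 (limma, adjusted p = 1.29e-08) and the largest fall among genes that met the rule for named genes. All 3 cluster libraries were below 7 and all 3 endothelial libraries above 260. Its mean was 33.8 ± 9.25 (SD, n = 3) in HC GFP+ and 40.4 ± 3.93 in EC GFP-, so the gap to EC GFP+ was wide for every other population. Gja4, which encodes connexin 37, was 15, 19.2 and 14.9 against 172, 199.6 and 186 (-3.44 ± 0.14, adjusted p = 9.38e-08), and it differed from Gja5 in standing at 86.4 ± 13.1 in EC GFP- and only 23.1 ± 4.03 in HC GFP+.

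Within the Notch pathway, the lowered genes included ligands, receptors and targets, with different parts. The target Heyl had the opposite sign, at 4.4, 1.61 and 7.31 in HC GFP- and 1.64, 0.996 and 1.78 in EC GFP+ (1.0 ± 0.39). The groups overlapped and it did not pass (adjusted p = 0.113). Heyl was higher without replicate 2 of HC GFP- (1.45, adjusted p = 0.0155) and with the replicate block (adjusted p = 0.00965), and the list then had 1 higher call. Jag1, a Notch ligand, was 6.74, 8.04 and 7.98 in HC GFP- and 49.8, 46.4 and 54.4 in EC GFP+ (-2.58 ± 0.12, adjusted p = 2.04e-07), with a cell type part of -0.90 and a reporter part of 1.68. The following members were named after their values were seen. Dll4, the ligand of arterial tip and wall cells, was 15.8, 22.7 and 15.9 against 48.1, 46.6 and 47.4, with the whole of the fall in the cell type part (-1.52) and a reporter part of -0.16. Dll1, by contrast, had 12.1, 12.4 and 9.98 against 22.9, 27.3 and 22 with a cell type part of 0.15 and a reporter part of 1.16. The receptors Notch1 and Notch4 fell by 0.69 and 1.11 on the log2(FPKM + 1) scale, with reporter parts of 0.15 and 0.06. Notch1 lost its call without replicate 1 or 3 of HC GFP- or replicate 1 of EC GFP+ (-0.66 to -0.63, adjusted p between 0.054 and 0.0594). The Notch target Hey1 stood at 11.6, 15.9 and 14 against 56.3, 47.2 and 50.1, and its reporter part was -0.03. Hey2, a related transcriptional repressor of arterial cells and 1 of the 12 largest falls, was 1.52, 0.762 and 1.8 against 22.1, 25.1 and 22.1 (-3.38 ± 0.20, adjusted p = 1.22e-06), with parts of -1.70 by cell type and 1.68 by reporter. In HC GFP+ and EC GFP- Hey2 stood at 3.0 ± 0.794 and 3.02 ± 0.653, far below the EC GFP+ libraries, whereas Hey1 stood at 42.5 ± 5.75 in EC GFP-, close to EC GFP+.

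The 250 bases before the start of Hey2 are shown because the gene is a Notch target and marks this difference. They lie at chr10:30842784-30843033 on the minus strand (RefSeq, GRCm38.p6) and are read 5′ to 3′ toward the start; capitals mark the letters TGGGAA, the core read by the Notch partner RBPJ, searched on both strands.

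Hey2: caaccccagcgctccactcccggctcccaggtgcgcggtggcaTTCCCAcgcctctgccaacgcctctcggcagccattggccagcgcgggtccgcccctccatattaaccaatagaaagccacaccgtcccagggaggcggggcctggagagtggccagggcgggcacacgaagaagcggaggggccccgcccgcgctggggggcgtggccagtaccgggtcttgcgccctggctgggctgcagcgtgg

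The match begins 207 bases before the start. These letters occur in 21.6% of the 32851 promoter windows of this length in the table, and of the 25 lowered arterial genes 19 had a promoter in the table, of which 2 (10.5%) held them, against 23.7% of the 9090 tested genes with a promoter. A match describes the letters and shows no binding.

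Other members of the arterial list fell as far. Bmx, a kinase of arterial endothelium, stood at 0.504, 0.616 and 0.631 in HC GFP- and 14.5, 13.8 and 12.9 in EC GFP+ (-3.22 ± 0.16, adjusted p = 4.42e-07). Tmem100, a membrane protein downstream of BMP signalling in arterial endothelium, was 1.28, 1.34 and 1.02 against 26.5, 28 and 25.5 (-3.65). Their parts were close to each other, with -1.62 and -1.90 by cell type and 1.60 and 1.75 by reporter. Efnb2, the ligand that marks arteries, moved less, from 103, 98.1 and 101 in EC GFP+ to 45.5, 55.1 and 45.8 in HC GFP-, a fall of 1.04 that was almost all cell type (-0.88, with 0.16 by reporter); it and Cxcr4, the chemokine receptor (6.86, 9.23 and 8.13 against 26.8, 32.5 and 27.8), were named after their values were seen.

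**Figure D2:**
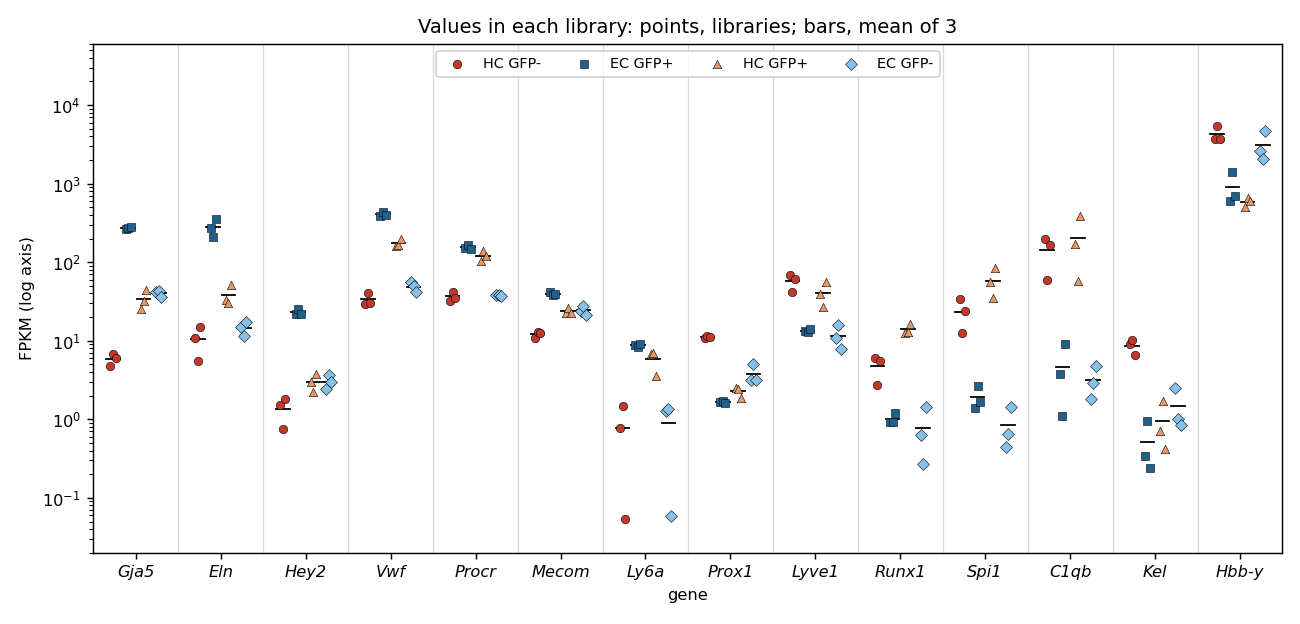
FPKM (log axis) of 14 genes in each of the 12 libraries, with HC GFP- as circles, EC GFP+ as squares, HC GFP+ as triangles and EC GFP- as diamonds, and a bar at each mean of 3. Gja5, Eln, Hey2 and Vwf are highest in EC GFP+, Prox1 is highest in HC GFP-, C1qb and Spi1 are high in both HC populations, and Hbb-y is high in both GFP- populations.

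Genes shared by all endothelium were lower as well, by smaller amounts. Of 31 pan-endothelial genes tested, 24 were lower (7.98% of all genes were), none was higher and 7 did not pass, with a median of -0.82. Without replicate 2 of HC GFP-, 30 were lower and the median was -0.92. The summed FPKM of the list was 4300.0, 5853 and 4507 in HC GFP- and 8298, 8585 and 8138 in EC GFP+, with no overlap and with replicate 2 of HC GFP- nearest to the endothelium. Tm4sf1, a membrane protein of migrating endothelium, fell most, from 65.4, 87.2 and 72.8 to 5.54, 7.85 and 7.66 (-3.25 ± 0.19, adjusted p = 1.22e-06). Calcrl, the adrenomedullin receptor, was 67.7, 88.9 and 89.3 against 298, 321 and 285 (-1.87 ± 0.17, adjusted p = 2.38e-05). Ptprb, the phosphatase VE-PTP that binds VE-cadherin, was 15.9, 18.9 and 17.8 against 66.4, 61.7 and 67.1 (-1.84), and Clec14a, an endothelial lectin, 31.6, 39.5 and 37.3 against 88, 104 and 85.3 (-1.33). For each of these 4 genes all HC GFP- libraries were below all EC GFP+ libraries. Calcrl and Ptprb carried more by reporter (1.31 and 1.34) than by cell type (-0.57 and -0.49).

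Genes of vascular tone, coagulation and the response to flow showed the same direction with a larger reporter part. Of 20 tested, 13 were lower (7.98% of all genes were), none was higher and 7 did not pass. The median of -0.91 stood beside medians of -0.34 by cell type and 0.63 by reporter. Thbd, which encodes the anticoagulant receptor thrombomodulin, was 17.5, 20.6 and 18.6 in HC GFP- and 63.4, 61.9 and 63.7 in EC GFP+ (-1.69 ± 0.08, adjusted p = 4.23e-07). Procr, the endothelial protein C receptor, which is also a surface marker of stem cells, was 32.2, 42.3 and 35.4 against 152, 166 and 145 (-2.05 ± 0.11, adjusted p = 8.12e-07). Its fall lay in the reporter part (1.84, with -0.21 by cell type), and HC GFP+ reached 121 ± 16.8. Ace, the angiotensin-converting enzyme, was 0.472, 0.908 and 0.511 against 12.1, 15 and 13 (-3.14 ± 0.18), and Ptgis, prostacyclin synthase, 8.25, 9.13 and 8.33 against 36.1, 45 and 34.1 (-2.03). Vwf, von Willebrand factor, a clotting protein, was 29.6, 40.7 and 30.4 against 388, 441 and 403 (-3.59 ± 0.14, adjusted p = 4.67e-08). HC GFP+ held 174 ± 19.5 and EC GFP- 48.9 ± 6.91, so GFP+ cells of either type were above GFP- cells of either type. The flow-induced factors Klf2 (63.1, 78.1 and 56.4 against 164, 189 and 156) and Klf4 (18.1, 25.1 and 22.4 against 63.6, 44.8 and 55), named after their values were seen, fell by 1.36 and 1.28, with 1.03 and 1.10 by reporter.

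Matrix genes of the arterial wall gave some of the largest differences. Eln, which encodes elastin, was 10.8, 5.54 and 15.1 in HC GFP- and 272, 211 and 359.5 in EC GFP+, a fall of 4.68 ± 0.32 (limma, adjusted p = 3.24e-06). It had the largest reporter part of the 12 largest falls (3.0, against -1.68 by cell type). Eln stood at 14.7 ± 3.06 in EC GFP-, near HC GFP-, and at 38.4 ± 11.5 in HC GFP+. Ltbp4, a binding protein of latent TGF-beta that guides elastic fibre assembly, was 7.6, 9.35 and 9.93 against 125, 142 and 140.4 (-3.79 ± 0.16, adjusted p = 9.38e-08). Fbln5, a fibulin needed for elastic fibres, was 1.95, 1.14 and 1.91 against 29.4, 24.8 and 38.6 (-3.57), and Mfap5, a microfibril protein, 0.66, 0.887 and 1.11 against 9.86, 9.78 and 11.7 (-2.60). In each of these 4 genes the lowest EC GFP+ library was several times the highest HC GFP- library. The elastic fibre list held calls in both directions. Of 20 tested, 7 were lower (7.98% of all genes were), 2 were higher (8.39% of all genes were) and 11 did not pass, with a median of -0.32. The HC GFP- libraries lay wholly below for 11 (16.4% of all genes) and wholly above for 2 (23.9% of all genes). Of the 2 that were higher, Emilin2, a microfibril-associated glycoprotein, was 5.67, 2.07 and 4.83 against 0.771, 0.118 and 1.2 (1.59 ± 0.39, adjusted p = 0.0168) and lost its call without replicate 1 or 3 of HC GFP- or replicate 2 of EC GFP+ (1.32 to 1.47). The other was Mfap4, a microfibril-associated protein of mesenchyme (30.1, 13.4 and 28.1 against 7.42, 10.9 and 8.51, 1.26), named after its values were seen, which did not pass without replicate 1 or 3 of HC GFP- or replicate 1 or 3 of EC GFP+ (1.06 to 1.23). No member was higher without replicate 1 or 3 of HC GFP-, and 1 was without replicate 1, 2 or 3 of EC GFP+.

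Basement membrane genes followed. Of 20 tested, 12 were lower (7.98% of all genes were), 2 were higher (8.39% of all genes were) and 6 did not pass, with a median of -0.55. Lama3, a laminin chain, was 0.715, 0.353 and 0.787 in HC GFP- and 9.48, 8.89 and 10.4 in EC GFP+ (-2.72 ± 0.15, adjusted p = 8.12e-07), and Lama5, another laminin chain, 3.35, 2.34 and 1.89 against 15.5, 22.6 and 23.6 (-2.61). The proteoglycan Agrn was 53.5, 64.9 and 53.3 against 162, 145 and 155 (-1.42), and Col18a1, the collagen that yields endostatin, 317, 370.1 and 309.9 against 746, 741 and 724 (-1.15 ± 0.10). Smoc1, a secreted calcium-binding protein, went the other way, with 7.67, 7.13 and 7.2 against 3.06, 3.66 and 3.02 (0.97 ± 0.17, adjusted p = 0.00247). The other higher gene was Col15a1, a basement membrane collagen (135, 202 and 134 against 109, 87.2 and 111, 0.59), named after its values were seen. It lost its call without replicate 2 of HC GFP-, any 1 library of EC GFP+ or replicate 1 of HC GFP+ (0.39 to 0.65), and except without replicate 2 of HC GFP- 1 gene was then higher. Among the remaining largest falls, Htra1, a secreted protease, was 3.42, 2.75 and 3.54 against 86.6, 102 and 102 (-4.53 ± 0.19, adjusted p = 9.58e-08). Stmn2, a microtubule regulator best known from neurons, was 11.7, 11.3 and 12.6 against 154, 179 and 142 (-3.63), with 69.3 ± 5.54 in HC GFP+ and 35 ± 4.16 in EC GFP-. Cytl1, a secreted cytokine-like protein, and Pi16, a peptidase inhibitor, fell by 3.68 and 3.55, from EC GFP+ means of 22.6 ± 4.28 and 42.5 ± 3.21 to 0.828 ± 0.14 and 2.72 ± 0.462.

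Of the TGF-beta and BMP pathway, 26 genes were tested. Of these, 10 were lower (7.98% of all genes were), 1 was higher (8.39% of all genes were) and 15 did not pass, with a median of -0.22. The ligand Bmp6 was 1.02, 1.19 and 0.929 in HC GFP- and 8.91, 7.38 and 11.4 in EC GFP+ (-2.31 ± 0.17, adjusted p = 6.2e-06). The inhibitory Smads, which are targets of and brakes on the pathway, were lower too, Smad6 at 14.2, 14.2 and 11.3 against 52.6, 53.5 and 48.9 (-1.90) and Smad7 at 15.1, 14 and 15.9 against 44.6, 42.2 and 44.2 (-1.48). Id1, a BMP target, was 50.2, 61.1 and 54.2 against 118, 108 and 96.8 (-0.95), nearly all of it by cell type (-0.98, with -0.03 by reporter). The transducer Smad1 was the 1 gene that rose, at 29.8, 34.9 and 34.1 against 22.4, 19.1 and 20.9 (0.64 ± 0.09, adjusted p = 0.000728). In the VEGF and Tie list, 8 of 17 were lower (7.98% of all genes were) and 4 higher (8.39% of all genes were). The ligands Vegfc (9.94, 12.1 and 12.2 against 58.1, 49 and 64.9, -2.23) and Vegfa (10.1, 7.53 and 9.92 against 27.1, 20.6 and 23.9, -1.29) fell, as did the co-receptor Nrp1 (-0.92) and the angiopoietin receptor Tek (-1.10), while of the 4 that rose Vegfb (0.63), Flt4 (0.62) and Nrp2 (0.36) were named after their values were seen (Nrp2 lost its call without any 1 library of HC GFP- or EC GFP+, replicate 1 or 2 of HC GFP+ or replicate 1 of EC GFP-, 0.33 to 0.39), and Angpt2, the context-dependent Tek ligand, went from 1.35, 1.59 and 2.38 to 3.88, 4.97 and 4.05 (0.95 ± 0.17, adjusted p = 0.00296).

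**Figure D3:**
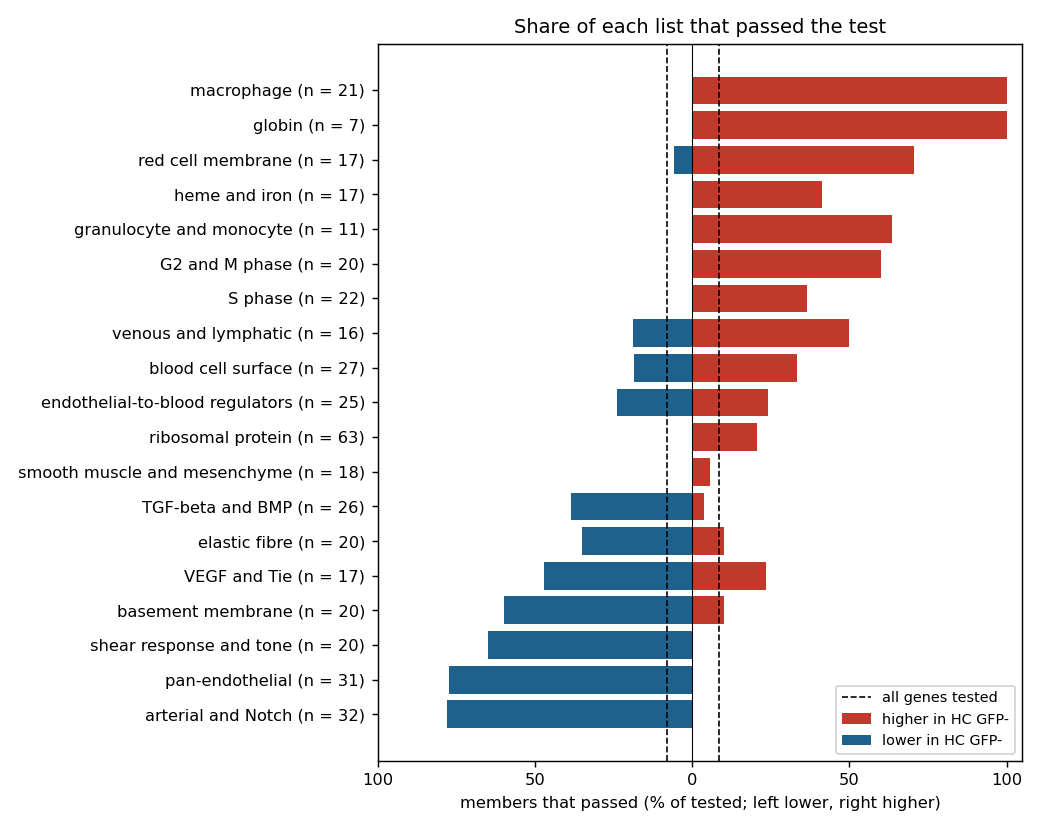
Share of tested members of 19 gene lists that were higher (right, red) or lower (left, blue) in HC GFP- at an adjusted p under 0.05, with dashed lines at the shares over all genes tested (8.39% higher and 7.98% lower). Macrophage and globin lists reach 100% higher, and pan-endothelial and arterial lists hold only lower calls.

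Venous and lymphatic genes, taken as 1 list, held calls in both directions. Of 16 venous and lymphatic genes tested, 8 were higher in HC GFP- (8.39% among all genes), 3 were lower and 5 did not pass, with a median of 0.49, or 0.33 over the 14 that met a stricter filter (a mean of at least 5 FPKM). With no filter 1 was lower. Prox1, the factor that specifies lymphatic endothelium, was 10.9, 11.6 and 11 in HC GFP- and 1.66, 1.73 and 1.6 in EC GFP+ (2.19 ± 0.15, adjusted p = 3.55e-06). The 3 pools in each group were within 1 FPKM of each other, and Prox1 was lower in the other populations too, at 2.28 ± 0.352 in HC GFP+ and 3.82 ± 1.05 in EC GFP-. Lyve1, a hyaluronan receptor of lymphatic endothelium, of some embryonic vessels and of macrophages, was 68.4, 41.2 and 61.6 against 13.4, 12.8 and 14 (1.98 ± 0.28, adjusted p = 0.000684). Its rise was a cell type difference (1.85, with -0.13 by reporter), whereas that of Prox1 was larger by reporter (-1.37) than by cell type (0.83). The members Mrc1 and Maf of this list are also expressed by macrophages, and Lyve1, Mrc1 and Maf were all lowest of the HC GFP- pools in replicate 2, as the macrophage genes were. The part of macrophages in these 3 was not tested. Reln, a secreted protein of lymphatic endothelium (4.41, 3.65 and 2.57 against 0.249, 0.551 and 0.248, 1.74 ± 0.28), Pdpn, the membrane protein podoplanin (7.44, 6.15 and 7.16 against 2.12, 2.04 and 1.6, 1.44 ± 0.31), and Flt4, the VEGF-C receptor (69.6, 87.2 and 65 against 48.7, 45.9 and 47.5, 0.62 ± 0.15), were named after their values were seen. Their groups did not overlap. Among the HC GFP- pools Pdpn was lowest in replicate 2, and Reln and Flt4 in replicate 3. Any part of macrophages in Reln, Pdpn and Flt4 was not tested either. Ephb4, the venous receptor for ephrin-B2, was lower, at 113, 143 and 109 against 189, 198 and 174 (-0.62), as were the ligand Apln (-0.54) and its receptor Aplnr (-0.41), named after their values were seen, and the 3 lower calls became 1 without replicate 1 or 3 of either HC GFP- or EC GFP+. Aplnr lost its call (-0.42 to -0.33) also without replicate 2 of EC GFP+, replicate 1 or 2 of HC GFP+ or replicate 1 of EC GFP-.

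Macrophage genes made up the largest rises in HC GFP-. Of 23 on the list, 21 were tested and all 21 were higher (8.39% of all genes tested), with a median of 3.55; Timd4 and Cd163 did not reach the filter. A macrophage gene could pass the filter through HC GFP- alone, so the count describes the members measured. Their summed FPKM was 1390.1, 424 and 1117 in HC GFP- and 31.1, 25.8 and 68.2 in EC GFP+, and 1278, 454 and 2577 in HC GFP+ and 25, 28.9 and 38.1 in EC GFP-. The list thus separated the cell types with no overlap and varied several-fold among pools of cluster cells. C1qb, a chain of the complement component C1q, was 198, 60 and 166 in HC GFP- and 3.8, 1.09 and 9.0 in EC GFP+ (4.77 ± 0.72, adjusted p = 0.00105), the largest rise. Mrc1, the mannose receptor CD206, was 103, 29.5 and 83.9 against 1.48, 1.36 and 1.95 (4.64 ± 0.51, adjusted p = 0.000131), and Csf1r, the receptor for the macrophage growth factor, 91.4, 27.6 and 69 against 1.92, 1.39 and 3.47 (4.18). F13a1, a coagulation factor subunit, was 116, 32.2 and 93 against 1.84, 0.898 and 2.81 (4.71), and Emr1, which encodes F4/80, 37.9, 11.7 and 28.6 against 0.42, 0.0937 and 0.80 (4.12). In each of these 5 genes replicate 2 was the lowest HC GFP- pool. Leaving it out kept 21 calls and raised the median of the list to 4.05. By reporter these genes hardly differed: the median reporter part was 0.27 and the median cell type part 3.93.

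The 250 bases before C1qb are shown as the promoter of the gene with the largest rise, at chr4:136886201-136886450 on the minus strand (RefSeq, GRCm38.p6). Capitals mark the letters GAGGAA, the core read by the myeloid factor PU.1, searched on both strands.

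C1qb: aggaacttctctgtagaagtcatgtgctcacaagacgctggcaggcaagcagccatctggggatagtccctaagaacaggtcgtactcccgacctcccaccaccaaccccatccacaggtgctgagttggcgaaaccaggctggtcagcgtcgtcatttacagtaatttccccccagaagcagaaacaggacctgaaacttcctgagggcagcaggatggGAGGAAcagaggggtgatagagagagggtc

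The match begins 30 bases before the start. These letters occur in 23.3% of all 32851 windows; 15 of the 21 macrophage genes that rose had a promoter in the table, and 11 of the 15 (73.3%) held them, against 25.8% of the tested genes with a promoter. These shares describe the letters of genes picked because they rose, and a match shows no binding. Spi1, which encodes PU.1, was 34.2, 12.6 and 23.9 in HC GFP- and 1.38, 2.68 and 1.67 in EC GFP+ (3.0 ± 0.37, limma, adjusted p = 0.000306), again lowest in replicate 2 among the HC GFP- pools. Any part of PU.1 in the macrophage genes was not tested.

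Granulocyte and monocyte genes were read beside them. Of 20 listed, 11 were tested, 7 were higher (8.39% of all genes tested were), none was lower and 4 did not pass, with a median of 1.5. With no filter 7 of 20 were higher and the median was 0.55. In 3 of the 11, Cybb among them, every EC GFP+ library was under an FPKM of 1, so they passed the filter through HC GFP- alone, and the count describes the members measured. Fcgr3, an Fc receptor, was 50.6, 16.2 and 38.8 in HC GFP- and 1.06, 0.34 and 1.72 in EC GFP+ (4.07), and Cybb, the catalytic subunit of the phagocyte oxidase, 6.75, 2.76 and 3.41 against 0.111, 0.315 and 0.317 (2.02). Both were lowest in replicate 2. Mpo, the granule enzyme myeloperoxidase of early granulocyte progenitors, was 3.37, 6.78 and 4.16 against 0.496, 0.976 and 1.57 (1.51 ± 0.25, adjusted p = 0.00194) and, unlike the macrophage genes, was highest in replicate 2. Under the rule of an FPKM of 1 or more in all 3 libraries of 1 population and under 0.1 in all 3 of the other, 8 genes were found in HC GFP- only and 2 in EC GFP+ only, of the 33531 listed. The 4 of the former with ordinary gene names were Gpr65 (3.13, 1.31 and 4.03 against 0.0692, 0 and 0.0372), an acid-sensing receptor of leukocytes, Il18 (2.28, 1.01 and 1.84 against 0.0914, 0 and 0), a cytokine, Tifab (3.8, 1.45 and 2.72 against 0.0554, 0 and 0.0527), a signalling adaptor, and Hist1h2bh (1.99, 1.32 and 1.98 against 0, 0 and 0.0842), a histone gene whose reads may be shared with near copies. Il18 passed the test in all libraries (adjusted p = 0.0202) but not without replicate 1 or 3 of HC GFP- or replicate 2 or 3 of EC GFP+ (1.22 to 1.35), and Tifab not without replicate 1 of HC GFP- (1.54, adjusted p = 0.0527). Those in EC GFP+ only were Cfi, complement factor I (0.0809, 0.0707 and 0.0776 against 2.68, 6.97 and 4.02), and Enpp6, a choline phosphodiesterase (0.0528, 0.0768 and 0.073 against 1.16, 1.62 and 1.98).

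Globins and red cell genes were another large group of rises. The globins differed by reporter, and the other red cell genes had calls by both parts. All 7 globin genes tested were higher in HC GFP- (8.39% of all genes), with a median of 2.35 that was 0.08 by cell type and -2.24 by reporter. Globin genes are near copies of each other, so reads can be split between them, and their sum is the safer value: 6719, 9915 and 6479.8 in HC GFP-, 972, 2470.3 and 1185 in EC GFP+, 848, 1187 and 991 in HC GFP+ and 4274, 3397 and 7950.3 in EC GFP-. Both GFP- populations were thus above both GFP+ populations, with no overlap. Hbb-y, the embryonic beta-like globin of primitive red cells, was 3744, 5485 and 3745 in HC GFP- and 608, 1391 and 688 in EC GFP+ (2.35 ± 0.34, adjusted p = 0.000805). The lowest HC GFP- pool was above the highest EC GFP+ pool. Hba-x, the embryonic alpha-like globin, was 1223, 1659 and 1036 against 132, 429.6 and 191 (2.53 ± 0.41), and Hba-a1, an alpha globin of embryo and adult, 408, 507 and 395 against 55.1, 121 and 67.6 (2.49).

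The promoter of Hbb-y is shown because that gene had the highest FPKM of the globins, and the promoter of Alas2, the red cell enzyme that starts heme synthesis, because it rose by a like amount. Hbb-y lies on the minus strand, with its window at chr7:103853208-103853457, and Alas2 on the plus strand, with its window at chrX:150547167-150547416 (RefSeq, GRCm38.p6). Capitals mark CCACCC, the core read by the erythroid factor KLF1, in Hbb-y, and AGATAA, a site form of GATA1, in Alas2, each searched on both strands.

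Hbb-y: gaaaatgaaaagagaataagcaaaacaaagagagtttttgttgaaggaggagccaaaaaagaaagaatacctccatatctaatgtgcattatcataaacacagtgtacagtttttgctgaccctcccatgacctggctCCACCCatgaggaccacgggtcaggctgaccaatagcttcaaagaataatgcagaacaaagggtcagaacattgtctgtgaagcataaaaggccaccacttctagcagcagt

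Alas2: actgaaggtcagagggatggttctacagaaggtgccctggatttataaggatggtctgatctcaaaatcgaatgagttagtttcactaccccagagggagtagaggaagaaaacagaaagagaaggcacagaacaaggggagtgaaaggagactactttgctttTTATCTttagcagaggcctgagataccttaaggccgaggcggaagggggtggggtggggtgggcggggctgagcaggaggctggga

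The match in Hbb-y begins 112 bases before the start and that in Alas2 86 bases before it. CCACCC occurs in 28.1% and AGATAA in 9.99% of all 32851 windows. Of the 26 globin, red cell membrane and heme genes that rose, 18 had a promoter in the table; 13 of the 18 (72.2%) held CCACCC and 6 (33.3%) AGATAA, against 37.6% and 7.10% of the tested genes with a promoter. These shares are descriptions of the letters in each window and show no binding. Any part of KLF1 or GATA1 in these genes was not tested. The same 18 promoters held TGGGAA in 33.3% and GAGGAA in 27.8%, against 23.7% and 25.8% of the tested genes. The 15 macrophage promoters held TGGGAA in 40.0%, CCACCC in 40.0% and AGATAA in 6.67%. The 19 lowered arterial promoters held GAGGAA in 42.1%, CCACCC in 47.4% and AGATAA in 0.0%. Klf1 itself was 2.61, 4.63 and 1.95 in HC GFP- and 0.43, 0.644 and 0.195 in EC GFP+ (1.47 ± 0.25, adjusted p = 0.00207). Gata1, named after its values were seen, was 1.45, 2.56 and 1.32 against 0.552, 0.677 and 2.4, overlapped and did not pass (adjusted p = 0.425).

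Of 17 red cell membrane genes tested, 12 were higher (8.39% of all genes were), 1 was lower (7.98% of all genes were) and 4 did not pass, with a median of 1.17. By cell type 6 were higher and 2 lower (10.8% and 8.62% of all genes). By reporter 2 were higher and 11 lower (9.39% and 9.42% of all genes). In 5 of the 17, Kel and Ermap among them, every EC GFP+ library was under an FPKM of 1, so they passed the filter through HC GFP- alone. Of the 5 genes that met the stricter filter 2 were higher and 1 lower, with a median of 0.06, and the summed FPKM of the list overlapped, at 188, 214 and 167 in HC GFP- and 169, 183 and 168 in EC GFP+. Kel, the Kell blood group protein, was 9.17, 10.2 and 6.63 in HC GFP- and 0.337, 0.964 and 0.242 in EC GFP+ (2.69 ± 0.31, adjusted p = 0.000167). Its cell type part of 1.18 beside a reporter part of -1.51 set it apart from the globins. Rhd, of the Rhesus complex, was 8.46, 11.8 and 5.95 against 0.747, 1.52 and 0.396 (2.37), and Ermap, an erythroid adhesion protein, 3.61, 4.48 and 3.31 against 0.608, 0.169 and 0.732 (1.69). The gene that fell was Aqp1, a water channel of red cells and also of endothelium, at 8.99, 12.3 and 7.05 against 60, 61.3 and 58.6 (-2.57 ± 0.17, adjusted p = 2.24e-06). Alas2 was 14.5, 17.8 and 13.1 against 1.77, 5.08 and 2.77 (2.01 ± 0.29), and Slc25a37, the mitochondrial iron importer, 18.6, 21.2 and 15.9 against 7.03, 6.95 and 6.87 (1.29). Of 17 heme and iron genes tested 7 were higher (8.39% of all genes were) and 10 did not pass. By cell type 5 were higher and 0 lower, and by reporter 0 were higher and 6 lower, beside the shares of all genes given above for each part. In this list 4 were higher without replicate 1 or 3 of HC GFP- or replicate 2 or 3 of EC GFP+. Among 19 erythroid regulators tested, 5 were higher (8.39% of all genes were), 2 were lower (7.98% of all genes were) and 12 did not pass. Besides Klf1 and Hemgn (1.39), the enzyme Car2 was 27.6, 39.2 and 29 against 9.5, 12.9 and 6.8 (1.64), Trim10 2.62, 4.12 and 2.44 against 0.487, 0.417 and 0.505 (1.44), and the erythropoietin receptor Epor 7.44, 6.77 and 4.87 against 0.98, 2.18 and 2.78 (1.34). The 2 lower genes, Lmo2 (-0.44) and Ldb1 (-0.23), are adaptors of blood and endothelium; neither passed without replicate 1 or 3 of HC GFP- or replicate 1 of EC GFP+, and 1 did without replicate 3 of EC GFP+. Hemgn and Ldb1 were named after their values were seen. The globin sum, Kel, Rhd, Ermap and Alas2 were highest in replicate 2 of HC GFP-, the pool in which macrophage genes were lowest; without that pool 7 globins and 11 red cell membrane genes were higher.

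**Figure D4:**
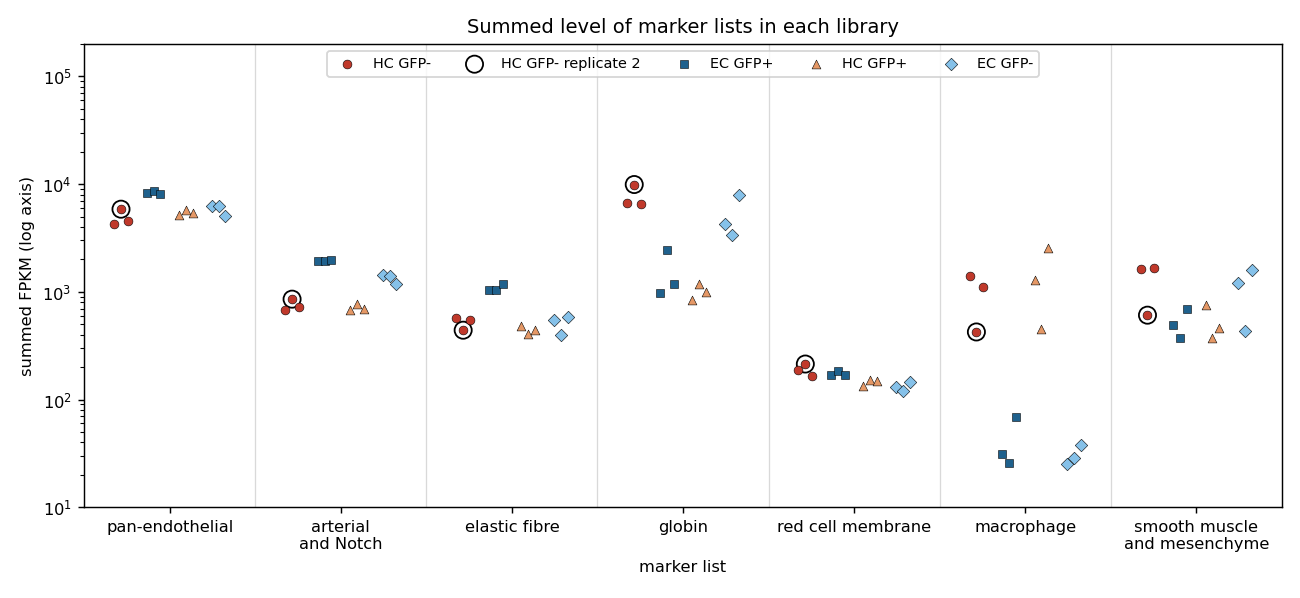
Summed FPKM (log axis) of 7 marker lists in each of the 12 libraries, with replicate 2 of HC GFP- ringed. The lowest globin sum of a GFP- library is 3397 and the highest of a GFP+ library 2470.3; the lowest macrophage sum of an HC library is 424 and the highest of an EC library 68.2.

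Transcription factors of blood emergence split by direction. Of 25 tested, 6 were higher in HC GFP- (8.39% of all genes were), 6 were lower (7.98% of all genes were) and 13 did not pass, with a median of -0.11. Spi1 (above) and Ikzf1, the lymphoid and progenitor factor Ikaros, rose; Ikzf1 was 5.46, 3.43 and 6.83 in HC GFP- and 0.36, 0.641 and 0.56 in EC GFP+ (2.0 ± 0.19, adjusted p = 3.83e-05). Mecom and Gata2, which maintain stem cells and are also made by endothelium, were lower. Mecom was 10.8, 13 and 12.5 against 41.4, 38.5 and 38.8 (-1.63 ± 0.11, adjusted p = 2.44e-06) and Gata2 17.9, 21.3 and 16.6 against 35.9, 35.8 and 34.4 (-0.90 ± 0.12, adjusted p = 0.000544). The groups did not overlap for any of these 4 genes. The next 4 members were named after their values were seen. Runx1, which is required for the emergence of blood from endothelium, was 6.12, 2.73 and 5.57 against 0.937, 0.913 and 1.22 (1.47 ± 0.27, adjusted p = 0.00367), and Myb, a factor of definitive progenitors, 1.99, 1.96 and 2.05 against 0.513, 1.34 and 0.72 (0.72 ± 0.20, adjusted p = 0.03). Both were higher still in HC GFP+, at 13.9 ± 1.92 and 17.8 ± 3.86. Among the HC GFP- pools, Runx1 and Ikzf1 were lowest in replicate 2, as the macrophage genes were. The part of macrophages in Runx1 and Ikzf1 was not tested. Gfi1, a Runx1 target that silences endothelial genes, was lower in HC GFP- than in EC GFP+, at 0.315, 0.901 and 0.481 against 1.87, 4.69 and 2.3 (-1.29 ± 0.30, adjusted p = 0.0128), while HC GFP+ had 16.4 ± 6.82 and EC GFP- 0.0296 ± 0.0512. Its cell type part was 1.36 and its reporter part 2.65, which have opposed effects on the difference. Gata3 had 1.92, 1.22 and 2.13 against 4.66, 4.94 and 4.57 (-1.07). Myb lost its call without any 1 library of HC GFP- or replicate 1 or 3 of EC GFP+ (0.58 to 0.73, adjusted p between 0.0635 and 0.11), and Gfi1 without replicate 1 of HC GFP- (-1.17, adjusted p = 0.0543). Higher calls of this list fell from 6 to 3 without replicate 2 of HC GFP- or replicate 3 of EC GFP+, and lower calls from 6 to 3 without replicate 1 of HC GFP-.

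Surface proteins of blood cells also had calls in both directions. Of 27 tested, 9 were higher (8.39% of all genes were), 5 were lower (7.98% of all genes were) and 13 did not pass, with a median of 0.52. By cell type 20 were higher and 2 lower (10.8% and 8.62% of all genes). By reporter 14 were higher and 0 lower (9.39% and 9.42% of all genes). The members described below are the lower ones, which are the smaller group of calls. The sign of the median turned with the stricter filter, under which 4 of 14 were higher, 5 were lower and the median was -0.45. Of the 27, 5 were under an FPKM of 1 in every EC GFP+ library and passed the filter through HC GFP- alone. The 5 lower ones were Procr (above), Cd93 (-0.86), which like Spn was named after its values were seen, Cd34, a sialomucin of progenitors and endothelium (181, 266 and 195 against 535, 508 and 534, -1.31 ± 0.14, adjusted p = 7.49e-05), and Il2rg, the shared cytokine receptor chain (19.8, 18.7 and 20.5 against 39.1, 43.1 and 36.9, -0.98 ± 0.12, adjusted p = 0.000238), and Spn. Spn, which encodes CD43, was 0.667, 0.772 and 0.58 in HC GFP- and 1.93, 2.37 and 1.52 in EC GFP+ (-0.80 ± 0.15, adjusted p = 0.00406), both low beside 9.86 ± 1.41 in HC GFP+. Il2rg and Spn had reporter parts of 1.12 and 1.95, and their cell type parts were 0.14 and 1.14. Of the megakaryocyte and platelet list, 23 were tested, 2 were higher (8.39% of all genes were), 3 were lower and 18 did not pass, and 5 were higher with the replicate block; besides Vwf, Alox12, the platelet lipoxygenase, was lower (2.9, 2.65 and 1.51 against 8.97, 7.73 and 14.3, -1.74) and so was Rab27b, a granule transport protein (2.39, 2.17 and 1.9 against 5.59, 4.99 and 8.07, -1.17). The 2 higher calls, P2ry12 (5.38, 1.28 and 5.55 against 0.306, 0.351 and 0.551), a purine receptor of platelets and tissue macrophages, and Mmrn1 (63.7, 85.7 and 79 against 54.8, 54.9 and 48.4), named after its values were seen, ranged from 0 to 4 when single libraries were left out. The count was 0 without replicate 3 of HC GFP- or replicate 1 or 2 of EC GFP+, 1 without replicate 1 or 2 of HC GFP-, replicate 1 of HC GFP+ or replicate 1 of EC GFP-, and 4 without replicate 3 of EC GFP+. Of the lymphoid and mast cell lists, 4 of 20 and 1 of 12 members reached the filter. Since 16.4% of all genes passed in either direction, 1 call in each describes that gene and not the list. Lck, a kinase of T cells, was the 1 lymphoid gene that passed, at 35.6, 45.6 and 35.3 against 22.4, 26.7 and 20.1 (0.73 ± 0.14), and Srgn, the proteoglycan serglycin of granules and endothelium, the 1 mast cell gene, at 22.2, 16.8 and 21.4 against 44.7, 52.1 and 51.6 (-1.26).

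Some cell division genes were higher in HC GFP-, by small amounts. Of 20 genes of G2 and M phase, 12 were higher (8.39% of all genes were), none was lower and 8 did not pass, with a median of 0.39. In this list 7 were higher without replicate 1 of HC GFP- or replicate 3 of EC GFP+. Top2a, a topoisomerase of dividing cells, was 130.2, 129 and 137 in HC GFP- and 98.1, 84 and 95.7 in EC GFP+ (0.51 ± 0.07, adjusted p = 0.000779), and Ube2c, of the anaphase-promoting complex pathway, 185, 203 and 183 against 123, 136 and 137 (0.52). Birc5, the mitotic protein survivin, was 137, 133 and 136 against 92.6, 100.5 and 103 (0.45). The ranges did not overlap for these 3 genes, though the ratio of means was 1.37 for Birc5, 1.43 for Top2a and 1.44 for Ube2c. Of 22 S phase genes, 8 were higher (8.39% of all genes were), none was lower and 14 did not pass, with a median of 0.22. Fen1, a flap endonuclease of replication, was 64.7, 64.7 and 57.1 against 42.4, 45.2 and 38.5 (0.55). The S phase count was 3 when libraries were scaled to an equal FPKM sum, and 3 to 5 without any 1 library of HC GFP- or EC GFP+. Btg2, an antiproliferative gene, was lower, at 40, 36.9 and 39.4 against 65.9, 63.4 and 59.4 (-0.68 ± 0.09, adjusted p = 0.000599).

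Glycolysis genes had 6 higher (8.39% of all genes were) and 2 lower (7.98% of all genes were) of 18 tested, with a median of 0.24. Gapdh was 264, 276 and 246 in HC GFP- and 137, 172 and 148 in EC GFP+ (0.78 ± 0.12, adjusted p = 0.00101), and Hk2, a hexokinase, 6.83, 5.14 and 5.58 against 2.49, 2.0 and 2.2 (1.08 ± 0.19), while Hk1, the other hexokinase of the list, was lower at 21.4, 28.4 and 22.5 against 33.7, 31.7 and 32.8 (-0.44), as was the glucose transporter Slc2a1 (-0.42), named after its values were seen. The 2 lower calls became 1, with Slc2a1 lost, without replicate 1 or 3 of HC GFP- or any 1 library of EC GFP+ (-0.47 to -0.35). Of 63 ribosomal protein genes, 13 were higher (8.39% of all genes were), none was lower and 50 did not pass, with a median of 0.22. The higher count was 3 to 7 without replicate 1, 2 or 3 of HC GFP- or replicate 1 or 3 of EC GFP+, and 20 at an equal FPKM sum. Quantile normalization, a scaling that gives all libraries the same distribution of values, left 6 higher and 1 lower. The median of the list was then -0.006. Of 14 mitochondrially encoded genes 1 passed, where 16.4% of all genes did in either direction. It was mt-Nd6, a subunit of complex I encoded on the light strand, at 393, 427 and 478 against 117, 149 and 78.7 (1.95 ± 0.20, limma, adjusted p = 8.19e-05). Mitochondrial genes have near copies in the nuclear genome that can share reads.

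Interferon, antigen presentation and immediate early genes had few calls. All were lower, as were 7.98% of all genes. The medians of these lists were -0.21, -0.20 and -0.02, in that order. Counts this small describe single genes and are not read as a result about the lists. Of 18 interferon genes tested, 1 was lower and 17 did not pass; Ifitm3, an antiviral membrane protein, was 45.2, 51.4 and 63.8 in HC GFP- and 88.1, 101 and 114 in EC GFP+ (-0.91 ± 0.28, adjusted p = 0.0448), a call that was lost when any 1 of the 6 libraries was left out (-1.04 to -0.80, adjusted p between 0.0616 and 0.148). Of 11 antigen presentation genes, 2 were lower. H2-D1, a class I antigen whose reads can be shared with near copies, was 47.7, 39.7 and 38.3 against 115, 115 and 112 (-1.42 ± 0.18, adjusted p = 0.000387), and H2-Q4 was 6.35, 5.05 and 5.82 against 16.9, 12.8 and 16.7 (-1.28). Both were differences by reporter (1.24 and 1.20) rather than by cell type (-0.18 and -0.08). Of 20 immediate early genes 3 were lower, Btg2 (above), Ier2 (-0.38) and Nr4a1; Nr4a1, an orphan nuclear receptor, was 42.2, 40.1 and 40.8 against 76.3, 57.6 and 70.1 (-0.71 ± 0.15, adjusted p = 0.00904). Ier2 lost its call without replicate 3 of HC GFP- or replicate 1 or 2 of EC GFP+ (-0.40 to -0.29).

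Markers of other cells near the arteries were read last. Of 18 smooth muscle and mesenchyme genes tested, 1 was higher (8.39% of all genes were), none was lower and 17 did not pass, yet the median was 0.92. The summed FPKM was 1646, 607 and 1651 in HC GFP- and 488, 377 and 689 in EC GFP+, so replicate 2 of HC GFP- lay within the EC GFP+ range and replicates 1 and 3 well above it. Replicate 2 was also the lowest pool of every other population (758, 373 and 462 in HC GFP+ and 1209, 429 and 1609 in EC GFP-), and for each replicate number HC GFP- was above EC GFP+. With the replicate number as a block 9 genes were higher. Without replicate 2 of HC GFP- 9 genes were higher and the median was 1.27, and without replicate 2 of EC GFP- 7 were higher. The gene called was Lum, the matrix proteoglycan lumican, at 84.2, 28.7 and 84.9 against 16.6, 10.6 and 23.5 (1.81 ± 0.56, adjusted p = 0.0476). Its call was lost without replicate 1 or 3 of HC GFP-, any 1 library of EC GFP+, replicate 2 or 3 of HC GFP+ or replicate 1 of EC GFP- (1.53 to 2.07, adjusted p between 0.0542 and 0.16). Pdgfrb, a pericyte receptor, was 9.02, 4.03 and 8.46 against 2.59, 1.48 and 3.92 (1.15 ± 0.36, adjusted p = 0.051), and it passed without replicate 2 of HC GFP- (1.47, adjusted p = 0.0204), replicate 3 of EC GFP+ (1.39, adjusted p = 0.0452), replicate 1 of HC GFP+ (adjusted p = 0.0493) or replicate 2 or 3 of EC GFP- (adjusted p = 0.0405 and 0.0456). Fibrillar matrix genes behaved alike in their median (1.5, with 1 higher, again Lum, 3 lower and 14 not passing of 18). Over all genes 8.39% were higher and 7.98% lower. Of the fibrillar matrix genes 11 were higher with the replicate block or without replicate 2 of HC GFP-, 10 without replicate 2 and 2 without replicate 3 of EC GFP-. The 3 that were lower were Fn1, which encodes fibronectin (145, 94.9 and 143 against 361, 351 and 397, -1.55 ± 0.15), Col5a2, a fibrillar collagen chain (64.2, 44.6 and 68.3 against 128, 122 and 134, -1.12), and Bgn, the proteoglycan biglycan (62, 72.2 and 73.2 against 134, 131 and 154, -1.0), all with no overlap. The part of mesenchyme cells in the genes that rose was not tested. Epithelial and mesonephric genes had 0 calls by limma among 10 tested, 1 at an unadjusted p under 0.05 and 1 call without replicate 2 of EC GFP-. Yolk sac and liver genes had 0 among 4, and 0 at an unadjusted p under 0.05. Of 5 neural crest genes 1 was lower, Isl1, a factor of neural and heart progenitors (3.81, 2.06 and 3.32 against 7.31, 16.5 and 6.29, -1.35), which did not pass without replicate 2 of HC GFP- (adjusted p = 0.0521).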

How the data were processed

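Polyadenylated RNA of 3 pools per sorted population was sequenced after preparation with an NEBNext Ultra kit, per the labels' protocols. The authors deposited a table of FPKM values, with a row for each gene symbol. The submitters' processing notes name genome build mm9 and the tools Cufflinks, featureCounts, edgeR and DESeq, with neither roles nor versions. Aligner, annotation and strand setting: not given in the sources used here. FPKM values keep no read numbers, so no count test was run, and an exact 0 may be a failed estimate.

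Genes whose FPKM was at least 1 in 3 or more of these 6 libraries were analysed as log2(FPKM + 1), which understates changes of low genes, with limma 3.58.1 in R 4.3.3. A model with 4 population means was fitted to all 12 libraries (8 residual degrees of freedom, empirical Bayes with an intensity trend), so both populations share a spread with HC GFP+ and EC GFP-. Tests were two-sided, and Benjamini-Hochberg adjustment ran over all 12580 genes, with a threshold of 0.05. The labels call the pools independent biological samples, but pools drawn from the same 122 embryos may vary less than separate litters. The script was tested on simulated data. No paper was used, and the gene lists and members were chosen with earlier results of these data known. Named genes were the sort and given markers, Cd27 and Cd70; the 12 largest rises and 12 largest falls among called genes with no overlap, a higher population mean of at least 5 FPKM and an ordinary gene name; up to 4 members of each list in the order of p, with the best in the other direction; and genes present in 1 population only. Not every gene so chosen is described, and genes outside this rule are marked in the text. Alternatives were a pseudocount of 0.1, no filter, a stricter filter (a mean of at least 5 FPKM), 3 scalings, the 6 libraries alone, no trend, the replicate block and leaving out each library. Promoter windows are RefSeq sequence of GRCm38.p6, matched by symbol; 9090 of the 12580 genes tested had one.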

Additional observations from a re-analysis of the deposited data

Results flagged for a closer look

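The effect of the reporter (GFP+ minus GFP-) differed between cluster cells and endothelium for 13 of the 138 genes named with a test. This was limma's test of the difference itself, with adjusted p under 0.05. Of all genes tested 0.541% passed it, 22 with a positive difference (HC minus EC) and 46 with a negative one. Most genes were named for their difference between HC GFP- and EC GFP+, whose libraries also enter this test. Count and direction among the named genes therefore describe those genes and cannot be set against the share of all genes. In 11 of the 13 the effect was larger in endothelium, which places the EC GFP+ level above that of the other populations. On the log2(FPKM + 1) scale the difference of effects, HC minus EC, was -2.67 for Fbln5, -2.45 for Htra1, -2.29 for Pi16, -1.97 for Bmp6, -1.95 for Lama3, -1.82 for Hey2, -1.67 for Ltbp4, -1.64 for Ace, -1.41 for Fn1, -1.18 for Jag1 and -1.08 for Smad6. For Fbln5, a fibulin of elastic fibres, the reporter effect was 3.40 in EC and 0.73 in HC, and for Lama3, a laminin chain, 2.75 and 0.79. For Bmp6 it was 2.19 in EC and 0.22 in HC. In the other 2 genes the effect was larger in cluster cells: the difference was 2.08 for Myb (2.63 in HC and 0.55 in EC) and 1.49 for Spn, which encodes CD43 (2.69 and 1.20).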

How the results depend on the processing

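Of 138 genes named with a test, 115 kept their direction and their side of the threshold under each of the 21 alternatives that tested them, and 0 reversed. This rests on 2865 values, since genes that did not meet the stricter filter have no value there. Calls lost or gained without 1 library stand beside each gene in the report. Without 1 library at a time, 529 to 1215 genes were higher and 710 to 1115 lower, and by reporter 705 to 1553 were lower. At an equal FPKM sum 2083 genes were higher and 523 lower by reporter, and 669 were lower with erythroid and mitochondrial genes left out of the sum; the cause was not tested. The median over all genes moved from -0.02 to 0.09 by reporter at an equal sum. Over all genes, deviations of same-numbered HC GFP- and EC GFP+ libraries correlated at -0.073, 0.052 and 0.078, too little to treat the numbers of these populations as pairs. HC GFP+ and EC GFP- were not checked in this way. The summed mesenchyme and fibrillar matrix genes were lowest in replicate 2 of all 4 populations. With the replicate block 1150 genes were higher and 999 lower, 9 mesenchyme and 11 fibrillar matrix genes were higher, and Pdgfrb passed (adjusted p = 0.00289). With no filter 6 ribosomal protein genes were higher, and with the stricter filter 2 factors of blood emergence and 1 erythroid regulator. With a pseudocount of 0.1, differences of low genes were larger, 3.21 for Ptprc, 4.33 for Gpr65 and -4.62 for Cfi, and Myb did not pass (adjusted p = 0.0793). Depth is unknown, which limits what can be said of genes near an FPKM of 0.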
